A study of Mus musculus with 2 samples.

Results

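Cytosolic ribosomal protein genes encode the proteins of the large subunit (Rpl) and the small subunit (Rps) of the ribosome, including the acidic P-stalk proteins (Rplp) that recruit elongation factors. All gene rows with a symbol made of Rpl, Rps or Rplp, a number and at most one trailing a, x or l were taken, which gave 79 genes of 31054 rows in the table. Of these, 49 belong to the large and 30 to the small subunit. They were followed in liver cells of 3 young adult female C57BL/6 mice after hydrodynamic tail vein injection of a transposon in which the strong CAGGS promoter drives mVenus and human NRAS, either oncogenic NRAS(G12V) or NRAS(G12V/D38A), an effector-domain mutant used as non-oncogenic control. Livers were taken on day 6, and mVenus-positive cells were sorted, pooled after antibody hashtagging and sequenced as a 10x 3′ library with a second library of hashtags. The construct enters only some hepatocytes of each liver and at unequal copy number, so a liver holds cells with very different RAS doses. The deposited hashtag table gives hashtag 1 to the NRAS(G12V/D38A) mouse and hashtags 2 and 3 to the NRAS(G12V) mice, whereas the methods give hashtags 1 and 2 to NRAS(G12V) and hashtag 3 to NRAS(G12V/D38A). Mice are therefore named here by hashtag and no comparison between the 2 constructs was made.

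Ribosomal protein mRNAs are among the most abundant in any cell, and their products are needed in equal numbers, so the genes are usually expressed in step. Most carry a 5′ terminal oligopyrimidine (TOP) tract, a C followed by a run of pyrimidines at the very start of the mRNA, through which mTORC1 signalling governs their translation. Growth signals through RAS and MYC raise the production of ribosomes, and loss or excess of single subunit proteins is sensed through Rpl5 and Rpl11, which can bind the p53 inhibitor Mdm2. A few genes have tissue-restricted paralogues (Rpl3l in striated muscle, Rpl10l and Rpl39l in the testis), and Rps27l, the paralogue of Rps27, is a known p53 target.

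RefSeq start windows on GRCm38.p6 (the mm10 build) were matched for 59 of the 79 symbols. The letters CTTTC were searched from 10 bases before to 30 bases after the annotated start, because they are a common core of the TOP tract. On the gene strand they were found in 17 of 59 ribosomal protein genes (28.8%) and in 5.69% of all 27025 genes with a window. On the other strand (GAAAG) the shares were 6.78% and 6.01%. The longer CTCTTTC, which contains CTTTC, was found in 6 of the 59 genes (10.2%) and in 0.537% of all genes on the gene strand. A match is a run of letters near an annotated start, and an annotated start need not be the base at which transcription begins in these cells. The windows below run from 10 bases before to 20 bases after the start for genes to which the results return, first genes of high level or large rise and a P-stalk gene, then those that moved least with the rest, with CTTTC in capitals.
Rps10, chr17:27635225-27635254, minus strand: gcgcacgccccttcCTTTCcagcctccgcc
Rpl15, chr14:18270967-18270996, minus strand: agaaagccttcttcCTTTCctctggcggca
Rpl14, chr9:120571507-120571536, plus strand: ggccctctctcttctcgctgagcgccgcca
Rplp2, chr7:141447641-141447670, plus strand: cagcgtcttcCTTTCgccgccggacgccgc
Rps27, chr3:90213629-90213658, minus strand: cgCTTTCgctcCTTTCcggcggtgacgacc
Rps26, chr10:128626487-128626516, minus strand: gcaagccgccggatcctCTTTCgagtcttg
Rpl10, chrX:74270806-74270835, plus strand: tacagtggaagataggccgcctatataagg
Rps27l, chr9:66946076-66946105, plus strand: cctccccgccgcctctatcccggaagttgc
In Rps10, Rpl15 and Rplp2, and also in Rps27 from the genes that moved least, a run of pyrimidines spans the annotated start and holds CTTTC. Rps27 holds another CTTTC upstream of that run. In Rpl14 the run holds no CTTTC, in Rps26 the letters lie further downstream, and the windows of Rpl10 and Rps27l hold none.

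The gene table held 13151 barcodes, of which 10219 had at least 500 genes, at least 1000 gene UMIs and under 20% mitochondrial UMIs, with 1000 to 135708 gene UMIs each. UMIs count captured mRNA molecules by their 3′ ends, so levels do not need scaling by transcript length. Levels are given as CPM, the usual scaling of UMIs to the total of gene UMIs, with the Nras and mVenus rows left out of the total because the mouse Nras row also takes up reads of the construct. Hepatocytes were barcodes with at least 1% of gene UMIs from Alb, Apoa1, Apoa2, Ttr and Fgb and no other cell type's marker gate, and there were 8129 of them, 1950 called for 1 hashtag and 6078 for none. The marker lists of endothelial cells, macrophages, dendritic cells, T and NK cells, B cells and neutrophils summed to at most 0.00262% of hepatocyte gene UMIs each. The stellate and plasmacytoid dendritic lists summed to 0.0200% and 0.0297%. Barcodes that passed a gate on any of these lists had been left out of the hepatocytes. Low sums therefore follow in part from the selection and are no separate check of purity. The limit of 1% lay near the level in other cells, with a median gate share of 1.31% in barcodes gated as neutrophils and 0.936% in B cells. The name hepatocyte is therefore less certain for barcodes under 10000 gene UMIs, whose median gate share was 2.40% and 2.12% in the 2 depth classes below. The p-values below rest on the spread between sums of 2 or 3 mice.

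In hepatocytes the ribosomal protein genes together held 13.2% of gene UMIs. The highest was Rpl13, at 3809 CPM, and the 10 highest also included Rpl23 (3451), Rps24 (3116), Rpl19 (2967), Rps27a (2928), Rps16 (2869), Rplp1 (2844) and Rps10 (2786). Rps27a encodes a fusion of ubiquitin with the small-subunit protein, and Rplp1 is a P-stalk protein. The 10 highest genes held 3.07% of gene UMIs, and 42 members stood among the 100 highest genes of hepatocytes. The lowest members with a level were Rpl13a, at 220.2 CPM, and Rpl27, at 276.4 CPM. Between Rpl13 and Rpl13a the levels spanned 17.3-fold, around a median of 1788 CPM. Levels of single members are uncertain, since 68 of the 76 genes with a level shared a 50-base stretch of their last 300 bases with annotated transcripts of other genes (median 8 other genes), and Cell Ranger does not count reads that map to several genes. Rpl29, with 82 such genes, and Rpl21, with 67, had the most.

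No member was at 0 in every barcode, but 3 had fewer than 10 UMIs in all 13151 barcodes. These were Rpl10l, with 7 UMIs, Rpl39l, with 7, and Rpl3l, with 4. Their ubiquitous partners Rpl10 (2347 CPM), Rpl39 (1278) and Rpl3 (1120) were abundant. Rps27l stood apart from these paralogues, with 911.7 CPM in hepatocytes beside 794.1 CPM for Rps27. Because 76 of the 79 genes passed the filter on low counts in each fit, the tests leave out only these 3 paralogues.

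Hepatocytes with at least 10000 gene UMIs (deep hepatocytes) were divided into quartiles of Nras level in CPM, with edges at 30.3, 93.9 and 404. The question was whether ribosomal protein genes followed the RAS dose within a liver. The lower edges correspond to few Nras UMIs per cell, and the row also counts mouse Nras. Placement in the lower quartiles thus depends on depth as well as dose. There were 1341 deep hepatocytes called for 1 hashtag, of which hashtag 3 contributed 11, too few for a sum of 10 cells in any quartile. The comparison therefore rests on hashtags 1 and 2, which carried different constructs by the deposited hashtag table and the same one by the methods. If the deposited table holds, the Nras level of hashtag 1 is that of NRAS(G12V/D38A), and the quartile fits join 2 constructs. The share of gene UMIs held by the ribosomal protein genes was 10.5%, 11.6%, 12.9% and 15.4% from the lowest to the highest quartile in hashtag 2 (279, 295, 280 and 263 cells). In hashtag 1 it was 13.0%, 12.6%, 13.5% and 15.1% (55, 36, 52 and 70 cells). The highest quartile was above every other quartile in both mice, and the step from the lowest to the highest quartile was 1.46-fold in hashtag 2 and 1.16-fold in hashtag 1. In hashtag 2 each quartile was above the one before, whereas the lowest 3 quartiles of hashtag 1 lay close together. Single cells overlapped between quartiles. In hashtag 2 the interquartile range of cells ran from 7.32% to 12.9% in the lowest quartile and from 12.9% to 18.2% in the highest.

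**Figure D1:**
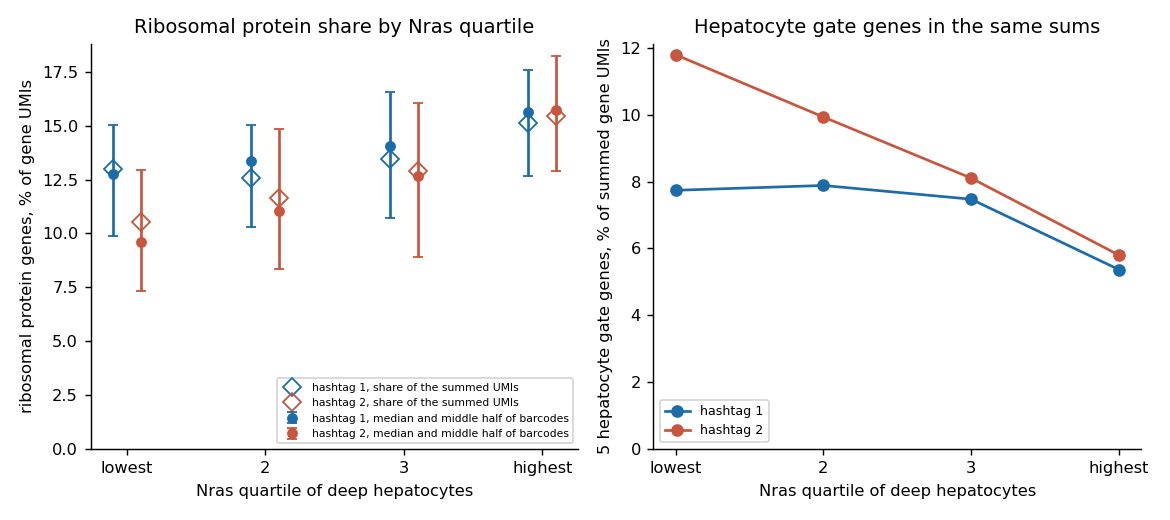
Left, share of gene UMIs held by ribosomal protein genes (vertical axis, percent) in deep hepatocytes by Nras quartile (horizontal axis) for hashtags 1 and 2, with circles and bars for the median and interquartile range of cells and diamonds for the share in the summed UMIs. Right, share of the 5 hepatocyte gate genes in the same sums. The diamonds end at 15.1% and 15.4% in the highest quartile, while the gate genes end at 5.37% and 5.80%.

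Other values moved with the same quartiles. Nras, which set the quartiles, had 11.3 CPM in the lowest and 2583 CPM in the highest quartile of hashtag 2, and hashtag 1 had 10.2 and 2566 CPM. The hepatocyte gate genes went from 11.8% to 5.80% of gene UMIs in hashtag 2 and from 7.74% to 5.37% in hashtag 1, and since shares sum to a whole, lower levels of such abundant mRNAs and higher levels of ribosomal protein mRNAs cannot be told apart on this scale. With mitochondrial genes and the 100 highest other hepatocyte genes left out of the total, the share still went from 20.4% to 26.8% in hashtag 2 and from 22.7% to 26.0% in hashtag 1. Median depth went from 40029 to 58425 gene UMIs per cell in hashtag 2 and from 23614 to 61096 in hashtag 1. Mitochondrial UMIs stayed between 8.51% and 9.45% of the sums. Of the marker lists of other cells, B, T and NK, macrophage, neutrophil, dendritic and endothelial markers summed to at most 71.9 CPM in any quartile sum. Barcodes that passed the gates on these lists had been left out beforehand. The plasmacytoid dendritic list summed to 284.2 CPM in the lowest and 322.9 CPM in the highest quartile of hashtag 2, and to 310.4 and 368.3 CPM in hashtag 1. The stellate list summed to 110.8 CPM in the lowest and 493.5 CPM in the highest quartile of hashtag 2. Hashtag 1 had 91.3 and 463.9 CPM. Of the highest-quartile sums, Ecm1 alone made up 467.0 CPM for hashtag 2 and 443.7 CPM for hashtag 1. Reln, of the same list, went the other way. Its highest quartile held 24.7 CPM beside 46.4 in the lowest (hashtag 2), or 18.4 beside 24.3 (hashtag 1). Dcn and Colec11 stayed below 1 CPM. The part of these values in the ribosomal protein result was not tested.

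Deep hepatocytes without a hashtag call form a set of cells that the main fits and their quartile edges did not use. Some of them may have entered the alternative fits with a fixed hashtag rule. Placed into quartiles by the same edges, the 851 cells had ribosomal protein shares of 11.8%, 12.7%, 14.3% and 15.7% of their summed gene UMIs, from 231, 240, 225 and 155 cells. Their mouse is unknown, so this is a description with no test.

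Between the highest and the lowest quartile, 53 of 76 tested ribosomal protein genes rose and none fell (edgeR quasi-likelihood test on sums per mouse and quartile, mouse as a block, Benjamini-Hochberg adjusted p under 0.05). Of all 11296 genes tested, 12.9% rose and 13.6% fell. The median log2 fold change was 0.34 over the members and −0.01 over all genes. Of the small subunit 23 of 30 tested genes rose (median 0.34) and of the large subunit 30 of 46 (median 0.34). The level was higher at every step in hashtag 2 for 76 of 76 members, beside 22.8% of all genes tested, and in hashtag 1 for 14 of 76, beside 7.37%. In 72 members the highest quartile was above the other 3 in both mice, as it was for 18.5% of all genes. Fewer were called with hepatocytes limited to at least 5% gate genes (15 members, all higher, median 0.23), with depth class as a further term (21, all higher, median 0.29) and with cells from 3000 UMIs (4, all higher, median 0.25). Of all genes tested, 463 of 10487, 855 of 8038 and 1008 of 9878 were called higher in these fits. With cells from 3000 UMIs the share of members called was thus below that of all genes. The log2 fold change was above 0 for 75, 75 and 72 of the 76 members in these fits, called or not.

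The 5 largest rises were those of Rpl13a, Rpl14, Rpl15, Rpl13 and Rpl18, all of the large subunit. Rpl13a, which also takes part in transcript-selective translational silencing in inflammation, had 155.2, 176.0, 224.1 and 277.2 CPM from the lowest to the highest quartile in hashtag 2. Hashtag 1 had 221.6, 190.7, 212.8 and 276.2 CPM. Its log2 fold change was 0.55 ± 0.13 (SE, 2 mice, edgeR adjusted p = 0.0061). Rpl14, of the large subunit, had 1087, 1237, 1427 and 1854 CPM in the quartiles of hashtag 2, with 1378, 1324, 1444 and 1772 CPM for hashtag 1. In both genes the highest quartile stood above all others in each mouse, and the lowest quartile was lower in hashtag 2 than in hashtag 1. The log2 fold changes of Rpl14, Rpl15, Rpl13 and Rpl18 were 0.52, 0.51, 0.49 and 0.49, each with an edgeR adjusted p of 0.0018 or less.

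All 3 P-stalk genes rose. Rplp0, the scaffold of the stalk, had 1782 CPM in the lowest and 2856 CPM in the highest quartile of hashtag 2, with 2254 and 2769 CPM for hashtag 1 (log2 fold change 0.45 ± 0.10, edgeR adjusted p = 0.0043). Rplp1 and Rplp2, its partners, had log2 fold changes of 0.37 and 0.31 (edgeR adjusted p = 0.013 and 0.038). Rpl5 and Rpl11, which join the ribosome together with the small ribosomal RNA of the large subunit, had changes of 0.39 and 0.30 (edgeR adjusted p = 0.012 and 0.028). Of the partners of tissue-restricted paralogues, Rpl3 (0.36) rose, and Rpl39 (0.28, edgeR adjusted p = 0.051) lay just outside the threshold. Rpl10 was not called, at 0.11 (edgeR adjusted p = 0.44). Rps4x, without such a paralogue among the members, rose by 0.35.

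**Figure D2:**
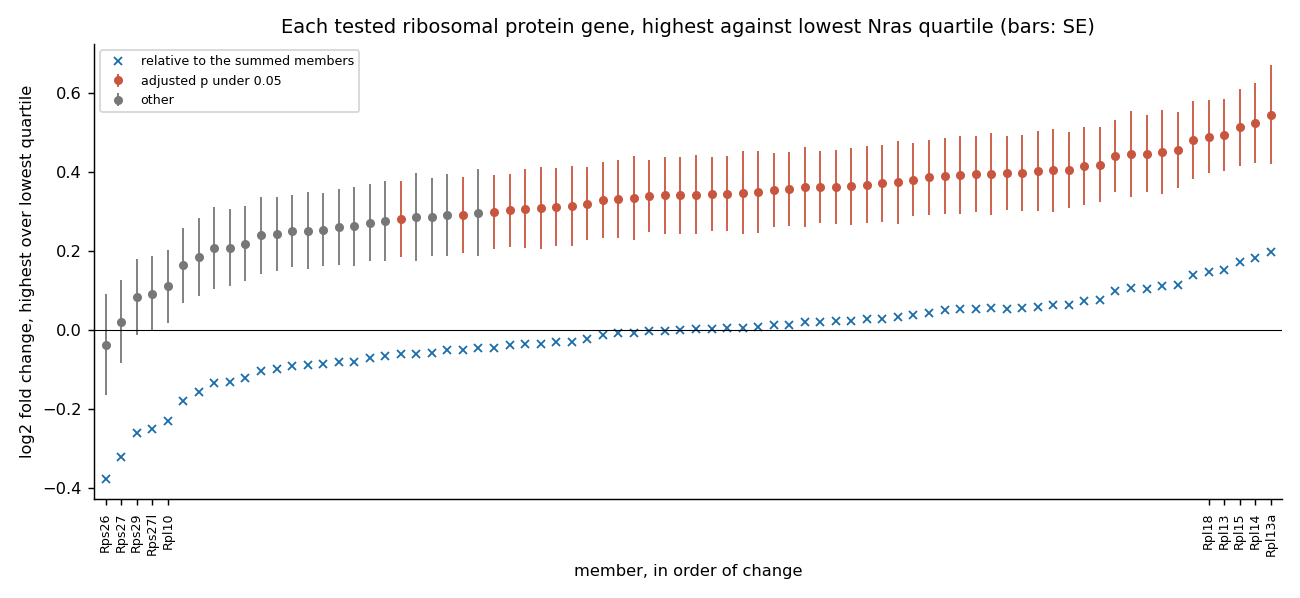
Log2 fold change between the highest and lowest Nras quartile (vertical axis) for each of the 76 tested ribosomal protein genes in order of change (horizontal axis, with names at either end), with bars for the SE and red for an adjusted p under 0.05. Crosses give the change relative to the summed members, with Rps26, Rps27, Rps29, Rps27l and Rpl10 at the low end.

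Rps26, Rps27, Rps29, Rps27l and Rpl10 had the lowest values of the set. Rps26, a small-subunit protein near the mRNA exit, had a log2 fold change of −0.04, the lowest of the set and the only one below 0. Its levels were 561.7, 603.9, 642.4 and 697.2 CPM in hashtag 2. They were 840.5, 617.1, 643.0 and 685.4 CPM for hashtag 1, where the lowest quartile was the highest value. Rps27 had a log2 fold change of 0.02 and Rps27l of 0.09, neither called (edgeR adjusted p = 0.92 and 0.54).

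To see which genes departed from the set, the fit was repeated with the sum of all ribosomal protein UMIs as the library size of each sum. Relative to that sum 5 members fell and none rose, where 32.6% of the 11128 genes tested fell and 5.19% rose on this scale. The 5 were Rps26, by 0.38 ± 0.10 on the log2 scale (SE, edgeR adjusted p = 0.018), Rps27, by 0.32 ± 0.08 (0.011), Rps29, by 0.26 ± 0.08 (0.028), Rps27l, by 0.25 ± 0.08 (0.037), and Rpl10, by 0.23 ± 0.07 (0.024). As a percent of all ribosomal protein UMIs, Rps27 had 0.670, 0.655, 0.623 and 0.549 in hashtag 2 and 0.658, 0.607, 0.609 and 0.513 in hashtag 1. Both mice had their lowest value in the highest quartile, also for Rps29 (0.926 to 0.749 and 0.883 to 0.761) and Rpl10 (1.91 to 1.58 and 1.81 to 1.58). The median over the members was 0.00 and the SD 0.11 on the log2 scale, and the other 71 tested members were not called on this scale. The scale itself places the members as a set near 0, so that median is no result. It also shifts the other genes, with a median of −0.39 over all genes tested. No member was called with the gate of 5%, where none had an unadjusted p under 0.05 either, and 1 was called with cells from 30000 UMIs and 1 with the depth term.

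Responses to RAS need not be linear with dose, so the mean of the 2 middle quartiles was set against the mean of the outer ones. No member passed the threshold in either direction in this edgeR test, where 1.45% of all genes were higher and 0.611% lower in the middle. At an unadjusted p under 0.05 there were 45 of 76 members and 1529 of the 11296 genes tested. With the total alone as library size there was 1 member (median −0.09), so the 45 depended on the scaling. DESeq2 called none, and without the filter on low counts 2 were called lower. The median log2 difference of the members was −0.16, beside 0.01 over all genes.

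Genes that work with the ribosome were read from gene lists in the same fit. Of 7 cytosolic ribosomal protein genes whose symbols fall outside the rule, 2 rose and none fell (median log2 fold change 0.14). These were Rpsa, a small-subunit protein also known as the laminin receptor, at 0.55 ± 0.10 (edgeR adjusted p = 0.00084), and Rps3a1, at 0.45 ± 0.09 (edgeR adjusted p = 0.0023). Of 18 genes for translation factors and other TOP mRNAs, 13 rose and none fell (median 0.43). The largest rises were those of the histone chaperone gene Nap1l1 (0.63), the elongation factor gene Eef1b2 (0.59), the poly(A)-binding protein gene Pabpc1 (0.58) and the nucleolar chaperone gene Npm1 (0.57). Of 24 ribosome biogenesis genes, 14 rose and none fell (median 0.49). Among these, Gar1, of the box H/ACA particles that modify ribosomal RNA, rose by 1.17, and Nop56, of the box C/D particles, by 0.90. Myc, a transcription factor that drives ribosome production, rose by 1.07, with 12.5 CPM in the lowest and 26.0 CPM in the highest quartile of hashtag 2 (hashtag 1, 14.1 and 34.3 CPM). Myc was also higher in deep hepatocytes than in those under 10000 gene UMIs, by 3.70 ± 0.62 (edgeR adjusted p = 0.00033). The part of depth in its rise over the quartiles was not tested. Of 77 tested mitochondrial ribosomal protein genes, 5 rose and 5 fell (median −0.11). Of the 5 hepatocyte gate genes 4 fell (median −0.97). The cells were selected on the share of these 5 genes, so their values are a description and no separate result.

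Depth of the cells was the second axis, because 5876 of the 8129 hepatocytes had under 10000 gene UMIs. Median shares of ribosomal protein UMIs were 12.3% in 3384 hepatocytes with under 3000 gene UMIs, 12.7% in 2492 with at least 3000 but under 10000, 13.5% in 729 with at least 10000 but under 30000 and 12.9% in 1524 with 30000 or more. These classes pool the mice and include the many hepatocytes without a hashtag call. Among called cells the order of the classes differed between mice. In the summed UMIs of called cells by class the shares were 13.1%, 13.7%, 13.7% and 14.0% for hashtag 1 and 13.6%, 13.0%, 12.0% and 12.9% for hashtag 2. In the pooled classes the median mitochondrial share was 0.365%, 0.192%, 7.21% and 8.69%, and the hepatocyte gate genes held 2.40%, 2.12%, 5.01% and 7.37%. Barcodes that missed the filters, with a median mitochondrial share of 46.9%, had a median ribosomal protein share of 5.64% (2932 barcodes).

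**Figure D3:**
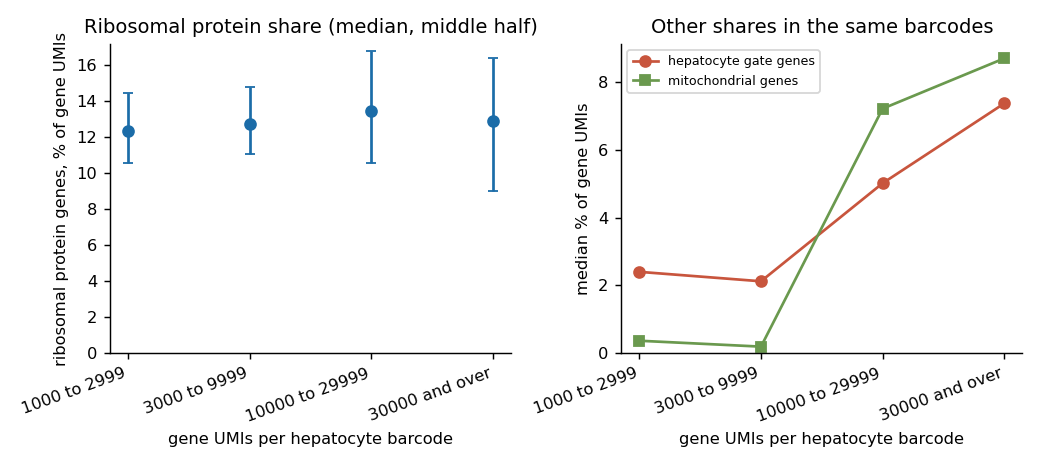
Left, median (point) and interquartile range (bar) of the share of gene UMIs held by ribosomal protein genes (percent, vertical axis) in hepatocytes by class of gene UMIs per barcode (horizontal axis), with medians between 12.3% and 13.5%. Right, median shares of the hepatocyte gate genes and of mitochondrial genes in the same classes, which reach 7.37% and 8.69% in the deepest.

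Between deep hepatocytes (10000 or more gene UMIs) and shallow ones, 18 of 76 members were higher and 1 was lower, where 25.1% of the 6603 genes tested were higher and 18.2% lower (edgeR, mouse as a block). The members' median log2 difference was 0.14, beside 0.09 over all genes. With the total alone as library size, which shifted the median of all genes to −0.10, 3 members were higher and 6 lower (member median −0.05), so the direction of the set depended on the scaling. The fit held 10 sums, and hashtag 3 gave sums in the shallow classes only. Without hashtag 3 there were 8 calls, without hashtag 2 there were 12, and with a fixed hashtag rule (at least 10 hashtag UMIs, 80% of 1 tag) there were 3. The 5 largest differences upward included those of Rpl18, at 0.65 ± 0.10 (edgeR adjusted p = 0.00025), Rps3 (0.53), Rpl9 (0.41) and Rps9 (0.41). Rpl18 had 1428 and 1453 CPM in the 2 shallow classes of hashtag 1, against 1881 and 2242 CPM in its deep ones. Hashtag 2 had 1469 and 1489 CPM against 1828 and 2069 CPM, and the shallow classes of hashtag 3 had 1351 and 1447 CPM. Shallow and deep sums did not overlap.

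Rps26 was the member that was lower in deep cells, at −0.72 ± 0.11 on the log2 scale (edgeR adjusted p = 0.00016). From the shallowest to the deepest class it had 1524, 1367, 1009 and 633.9 CPM for hashtag 1. Hashtag 2 had 1407, 1280, 744.7 and 622.4 CPM, and the shallow classes of hashtag 3 had 1309 and 1322 CPM. All shallow sums stood above all deep sums. With the fixed hashtag rule the value was −0.49 and no longer called. In the Nras quartiles, the sum with the fewest UMIs per cell, the lowest quartile of hashtag 1, was also the one with the highest Rps26 level, 840.5 CPM, and the part of depth in that value was not tested.

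Across cell types, the ribosomal protein genes held their highest shares in lymphocytes, 2.23-fold and 1.99-fold those of hepatocytes. Cells were gated on marker lists, with each type's own list at 0.550% of gene UMIs in B cells, 0.795% in T and NK cells, 0.361% in dendritic cells, 1.56% in endothelial cells and 1.83% in macrophages. Hepatocyte gate genes held 0.426% to 1.05% of gene UMIs in these types, beside 7.40% in hepatocytes. Ribosomal protein genes held 27.5%, 30.5% and 31.2% of gene UMIs in T and NK cells of hashtags 1, 2 and 3 (26, 26 and 41 cells), and 29.3%, 23.8% and 26.7% in B cells (22, 27 and 27 cells). In dendritic cells the shares were 20.8% and 21.2% in hashtags 1 and 2 (189 and 312 cells), and hashtag 3, with 8 cells, gave no sum. In hepatocytes they were 13.9%, 12.8% and 13.2%, in endothelial cells 13.8%, 13.2% and 11.1%, and in macrophages 14.2%, 13.4% and 12.3%.

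The order by mean over mice was T and NK cells (29.7% ± 1.96, SD, n = 3), B cells (26.6% ± 2.79, n = 3), dendritic cells (21.0% ± 0.257, n = 2), hepatocytes (13.3% ± 0.548, n = 3), macrophages (13.3% ± 0.964, n = 3) and endothelial cells (12.7% ± 1.41, n = 3). T and NK cells and B cells overlapped, as did hepatocytes, macrophages and endothelial cells. The lymphocyte, dendritic and lower levels did not overlap in any mouse. Relative to hepatocytes of the same mice the share was 2.23-fold in T and NK cells, 1.99-fold in B cells, 1.57-fold in dendritic cells, 0.994-fold in macrophages and 0.949-fold in endothelial cells. Sums differed in depth, with median gene UMIs per cell from 2008 to 2143 in B cells and from 2503 to 41377 in hepatocytes. Most hepatocytes of hashtag 3 were shallow, where the name hepatocyte is less certain.

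**Figure D4:**
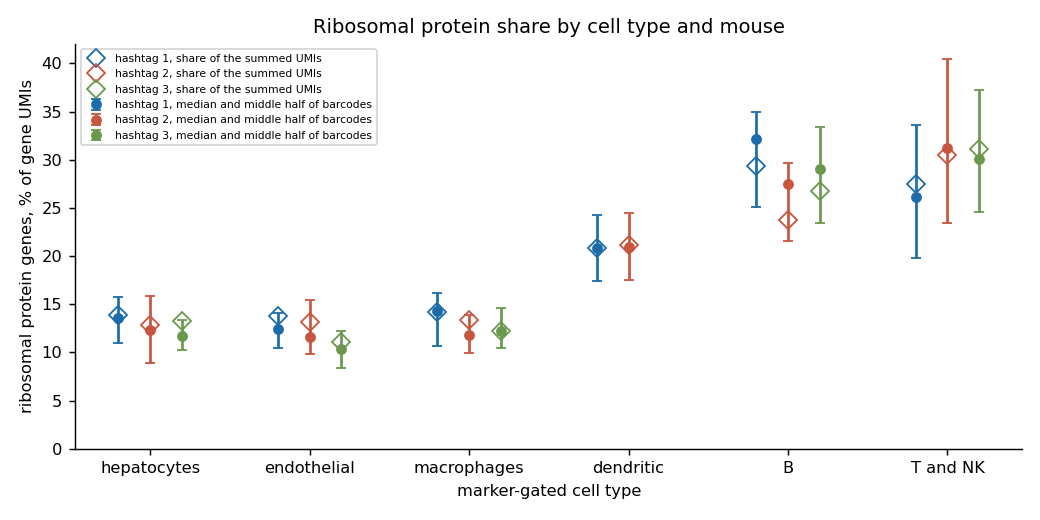
Share of gene UMIs held by ribosomal protein genes (percent, vertical axis) in each marker-gated cell type (horizontal axis) and mouse (colour), with diamonds for the summed UMIs and points and bars for the median and interquartile range of barcodes. The diamonds of T and NK cells and B cells lie between 23.8% and 31.2%, and those of hepatocytes between 12.8% and 13.9%.

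Gene by gene, 68 of 76 members were higher and 1 was lower in T and NK cells than in hepatocytes (22.2% and 21.2% of the 4682 genes tested, median log2 difference 1.00 beside −0.18 over all genes). In B cells 57 were higher and 1 lower (16.8% and 13.9% of genes, median 0.78 beside −0.35). Dendritic cells had 67 higher and 0 lower (30.5% and 24.2% of genes, median 0.97 beside 0.10). With the total alone as library size 71, 68 and 49 members were higher in these 3 types. Without the filter on low counts 22, 5 and 47 were higher, and without hashtag 1 the B cell count was 15, and without hashtag 2 the dendritic cell count was 32. In endothelial cells 31 members were lower and 0 higher (14.9% lower and 27.1% higher among all genes, median −0.46 beside 0.15), and in macrophages 7 were lower and 1 higher (14.1% and 22.3% of genes, median −0.23 beside −0.04). With the total alone the counts were 3 lower and 2 higher in endothelial cells, and 2 lower and 4 higher in macrophages, while the median of all genes moved to 0.51 and 0.18. In macrophages the direction of the calls turned with the scaling, and in endothelial cells most calls were lost. Without hashtag 2 there were 2 calls in endothelial cells and 1 in macrophages.

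Among the largest differences in T and NK cells were those of Rps27 (1.88 ± 0.20), Rpl12 (1.87), Rps15a (1.70), Rps24 (1.66) and Rps13 (1.43), and in B cells those of Rps27 (2.11 ± 0.21), Rps24 (1.55), Rpl12 (1.44) and Rps15a (1.44), each with an edgeR adjusted p of 4.2e-05 or less. Rps27, a zinc-finger protein of the small subunit, had 800.1, 785.8 and 801.8 CPM in hepatocytes of hashtags 1, 2 and 3, 4361, 3469 and 3871 CPM in B cells and 3244, 3199 and 3441 CPM in T and NK cells. Every lymphocyte sum was above every hepatocyte sum. In dendritic cells the largest differences included those of Rps29 (1.93 ± 0.23), Rps27 (1.46), Rps24 (1.45) and Rps28 (1.44). Rps29, another zinc-finger protein of the small subunit, was also the only member higher in macrophages (1.08 ± 0.21, edgeR adjusted p = 0.00057), with 2945, 2261 and 3332 CPM beside 1176, 1064 and 1207 CPM in hepatocytes. It was no longer called there without the filter on low counts or without hashtag 1.

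Rps27l, the p53-responsive paralogue of Rps27, went the other way. It had 921.2, 854.1 and 1018 CPM in hepatocytes of hashtags 1, 2 and 3 and 304.7, 247.6 and 135.4 CPM in T and NK cells, a log2 difference of −2.24 ± 0.26 (edgeR adjusted p = 4.2e-06). In B cells it had 300.8, 385.5 and 339.1 CPM (−1.62 ± 0.26), in endothelial cells 761.7, 498.8 and 446.2 CPM (−1.12 ± 0.23) and in macrophages 633.3, 477.0 and 455.4 CPM (−1.07 ± 0.24). Each hepatocyte sum was above each of these. The call in endothelial cells and in macrophages was lost without hashtag 2, at −1.05 in both. In dendritic cells it had 629.4 and 586.6 CPM, a log2 difference of −0.33 that was not called (edgeR adjusted p = 0.31). In each mouse hepatocytes held more Rps27l than Rps27 UMIs, and lymphocytes held more Rps27.

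Other members lower in endothelial cells included Rpl10a (−0.98), Rps2 (−0.85) and Rplp0 (−0.74), and in macrophages Rps7 (−0.70), Rpl15 (−0.66) and Rpl7 (−0.60). The calls of Rps2 and Rplp0 in endothelial cells and of Rps7, Rpl15 and Rpl7 in macrophages were lost with the total alone as library size.

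Relative to the summed members, which takes out the difference of the whole set, 5 members were higher and 10 lower in the mean of the 5 other cell types than in hepatocytes, where 13.6% of the 5844 genes tested were higher and 39.6% lower (edgeR). Those higher included Rps29 (0.72 ± 0.14, edgeR adjusted p = 0.00030), Rps27 (0.66), Rps24 (0.45) and Rps15a (0.34). The largest falls were those of Rps27l (−1.70 ± 0.19, edgeR adjusted p = 1.7e-06), Rps2 (−0.57), Rpl24 (−0.48), Rpl15 (−0.43) and Rpl10a (−0.39). As a percent of all ribosomal protein UMIs, Rps27l held 0.662, 0.666 and 0.769 in hepatocytes of hashtags 1, 2 and 3 and 0.111, 0.0813 and 0.0435 in T and NK cells. Rps29 held 0.845, 0.830 and 0.911 in hepatocytes and 2.08, 1.69 and 2.72 in macrophages. Without hashtag 1 the counts were 3 higher and 2 lower, and without hashtag 2 they were 2 and 2. The median over the members was −0.03 and over all genes −0.46 on this scale, which itself places the members as a set near 0.

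**Figure D5:**
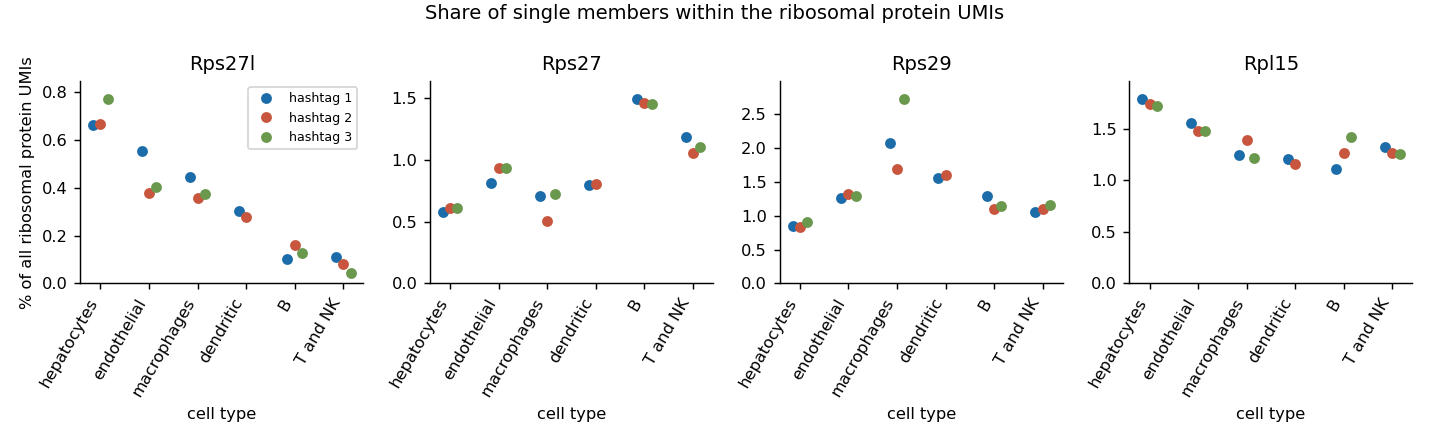
Percent of all ribosomal protein UMIs (vertical axis, from 0) held by Rps27l, Rps27, Rps29 and Rpl15 in the summed UMIs of each marker-gated cell type (horizontal axis), 1 point per mouse coloured by hashtag. Rps27l is highest in hepatocytes, at 0.662 to 0.769, Rps27 is highest in B cells and Rps29 in macrophages, at 1.69 to 2.72.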

How the data were processed

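The deposited files hold UMI counts per gene and per hashtag and barcode, made by the authors with Cell Ranger (version 2.1.1 per the labels, whereas the file header and the study's reporting summary name later versions) on mm10, from 2 lanes pooled in 1 matrix. The gene and hashtag tables shared 13141 barcodes. Hashtags were called with HTODemux (Seurat 5.3.0, quantile 0.99), which gave 1360, 2837 and 1285 barcodes for hashtags 1, 2 and 3, and 7386 negative ones. The 271 doublets of different tags were left out, and doublets within a mouse were not removed. Cells needed at least 500 genes, 1000 gene UMIs and under 20% mitochondrial UMIs. A marker gate other than the hepatocyte one needed 5 UMIs from 3 markers, 0.1% or more of gene UMIs, 2 times the next list and under 5% hepatocyte gate genes. Nras and mVenus were kept out of library sizes, since human NRAS has no row. Counts were summed per mouse and class (at least 10 cells) and tested with edgeR 4.0.16 (quasi-likelihood, TMM, filtered on low counts, mouse as a block because every mouse gave several sums) with Benjamini-Hochberg adjustment. SE was the log2 fold change divided by the root of F. In the relative fits the summed members were the library size. Alternatives were the total alone, DESeq2 1.42.0, no filter, no block, another gate, depth or mitochondrial limit, a fixed hashtag rule and leaving out each mouse. The steps were run on simulated counts with planted changes larger than the members' median change over the Nras quartiles. They do not show how changes of that smaller size are recovered. Named genes were the 10 highest members, the 5 largest called changes in each direction of each test, paralogues, P-stalk genes, Rpl5 and Rpl11; windows and members at the low end of the quartile fit were chosen after their values were seen. Some members that this rule names are not reported here. Members and lists were chosen with earlier results of these data known. Counts limit precision through cells per sum, which are given beside the shares.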

Additional observations from a re-analysis of the deposited data

How the results depend on the processing

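In the Nras quartiles 53 members were called. The count was 4 with cells from 3000 UMIs, a smaller share than the 1008 of 9878 genes called higher there. It was 15 with the gate of 5% and 21 with depth class as a term, and 40 with no replicate block, where the mouse is the block. Hashtag 3 gave no sum, so leaving it out leaves the same fit and is no test. Leaving out hashtag 1 or 2 left no residual degrees of freedom and hence no test. Putting cells on an edge in the upper quartile, an alternative chosen after seeing the data, gave 62. For the middle against the outer quartiles, no filter on low counts gave 2 calls. Relative to the summed members, 5 calls became 9 with the fixed hashtag rule, 1 from 3000 UMIs, 1 from 30000 UMIs, 1 with depth class as a term and 0 with the gate of 5%. For deep against shallow hepatocytes, 19 calls became 9 with the total alone (reversed), 3 with the fixed rule and 8 to 19 without 1 mouse. In the cell types relative to the summed members, 15 calls became 7 with no filter and 4 to 12 without 1 mouse (reversed without hashtag 1, with 5). Without the filter on low counts the calls were 7 in B cells, 61 in endothelial cells, 38 in macrophages and 23 in T and NK cells. With the total alone they were 5 in endothelial cells and 6 in macrophages (reversed), and with the fixed rule 17 and 2. Without 1 mouse they ranged from 16 to 42 in B cells, 32 to 66 in dendritic cells, 2 to 26 in endothelial cells, 1 to 13 in macrophages (reversed without hashtag 2, with 1) and 47 to 54 in T and NK cells. On the log2 scale, the share relative to hepatocytes ranged from −0.134 to 0.013 in endothelial cells without 1 mouse (0.013 without hashtag 3, reversed), and from −0.042 to 0.042 in macrophages (0.042 without hashtag 3, reversed). It was 0.023 in macrophages with all barcodes of the gate and 0.034 with other types held under 1% hepatocyte gate genes, both reversed. The causes were not tested. Over 677 alternatives for single members, 580 kept their side of the threshold, 92 lost the call, 5 gained it and 0 reversed. A reversal was a change of sign where either fit had a call, so changes of sign between uncalled values are among the 580. The quartile fit rests on 2 mice with 3 residual degrees of freedom, and the macrophage sums held 10 to 24 cells.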

Other observations

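Some gated classes had too few cells for a sum in each mouse. Over all barcodes, with or without a hashtag call, the median share of gene UMIs held by ribosomal protein genes was 20.7% in 20 plasmacytoid dendritic cells, 13.0% in 10 stellate cells and 7.08% in 20 neutrophils. The 473 barcodes that passed no gate had a median of 21.0% with a median depth of 9788 gene UMIs, near the 20.7% and 9717 of the 524 gated dendritic cells. The 34 barcodes that passed another type's gate with 5% or more hepatocyte gate genes had 10.8%.

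Mitochondrial ribosomal protein genes, whose products form a separate ribosome, were read from the same edgeR fits of cell types. Of 63 tested, 13 were lower in B cells than in hepatocytes, where 13.9% of all genes were lower (median log2 difference −0.75 beside −0.35 over all genes). In T and NK cells 19 were lower beside 21.2% of genes (−0.66 beside −0.18), in dendritic cells 22 beside 24.2% (−0.57 beside 0.10), in endothelial cells 17 beside 14.9% (−0.52 beside 0.15) and in macrophages 11 beside 14.1% (−0.72 beside −0.04).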
